A study of Mus musculus with 3 samples.

Results

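Acinar cells of the exocrine pancreas were examined among droplets of dissociated mouse islets, as barcodes in which transcripts of digestive enzymes made up a large share of the RNA. A barcode was included when *Prss2*, *Try4*, *Try5*, *Ctrb1*, *Cela1*, *Clps*, *Cpa1* and *Pnlip* together gave 5% or more of its unique molecular identifiers (UMIs, each standing for 1 captured transcript), with *Ins2* under 20%, *Gcg* under 10% and *Sst* under 5%. These 8 genes are called the rule enzymes below. The rule selected 63 of 25524 barcodes, of which 59 were in the wild-type (WT) library and 2 in each Taf4 mutant library. The barcodes were thus selected on the UMI shares of these 11 genes, so the levels of the 8 enzymes and 3 hormones, and every difference from endocrine barcodes, are descriptions without a test.

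The study inactivated *Taf4*, a subunit of the general transcription factor TFIID, in beta cells of adult C57/Bl6 mice, using floxed *Taf4* alleles with a tamoxifen-inducible *Ins1*::Cre-ERT2 driver that is active in insulin-producing cells. The study describes its controls as carrying the same driver with *Taf4*+/+ alleles and as also given tamoxifen, whereas the label of the single-cell control says only wild type. The WT library came from islets of 1 male mouse, and the mutant libraries, prepared 1 week or 5 weeks after inactivation, each came from islets pooled from 2 male mice. Islets were freed with collagenase, collected by pipetting, cultured, dissociated with Accutase, sorted for live cells and captured with the 10x Genomics 3′ assay. There was 1 library per condition, so no difference between conditions could be tested, and all intervals below are 95% intervals that cover counting error only.

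Acinar cells form the bulk of the exocrine pancreas and surround the islets. They make digestive enzymes, many as inactive zymogens, fold them in an extensive rough endoplasmic reticulum, and store them in zymogen granules that are released into the duct system on stimulation by cholecystokinin or acetylcholine. Their identity depends on transcription factors such as Ptf1a and Rbpjl, and injured or cultured acinar cells are known to lower enzyme transcripts while raising keratins and other duct-associated genes. Islet preparations usually carry some acinar cells along, and in droplet assays RNA from broken cells can enter droplets that hold other cells.

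The libraries differed in ways that bear on every comparison below. They held 19472212 UMIs over 12000 barcodes in WT, 23131247 over 2295 at 1 week and 39408284 over 11229 at 5 weeks, with median depths of 1396, 2759 and 2467 UMIs per barcode. No WT barcode exceeded 1489 detected genes, whereas 876 barcodes at 1 week and 994 at 5 weeks had more than 1500. The WT library, stated to come from a male, held 17357 UMIs of *Xist*, the RNA of the inactive X chromosome of females, and 0 UMIs of the listed Y-linked genes, while the mutant libraries held 17 and 11 *Xist* UMIs beside 4267 and 3476 Y-linked UMIs. The acinar barcodes of WT followed their library, with 69 *Xist* UMIs over 30 of the 59 barcodes. Condition can therefore not be told apart from animal, sex of origin or library. Between 2 and 33 barcode sequences were shared by pairs of libraries, 0 of them acinar in either. *Taf4* itself had 0 UMIs in the acinar barcodes of WT and of 5 weeks, and 1 UMI in each acinar barcode of 1 week, too few for any statement about the deletion in these cells.

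Genes that the rule did not use were read beside the acinar label. Zymogens, other enzymes and granule proteins outside the rule had higher sums than in endocrine barcodes of all 3 libraries. The log2 ratios of these sums were 6.56, 6.74 and 6.75 in WT, 10.6, 8.98 and 12.5 at 1 week, and 6.38, 6.52 and 6.03 at 5 weeks. RNA of such genes was also found in endocrine barcodes, so the ratios cannot show whether a droplet held an acinar cell. The 2 barcodes of 5 weeks also held 20 and 5 UMIs of endothelial markers, beside 4 UMIs in the 59 WT barcodes and 0 at 1 week. Since they carried endothelial markers, they are called the enzyme-positive barcodes of 5 weeks. These enzyme-positive barcodes had 0 UMIs of the 6 listed acinar transcription factors, which were sparse in WT too (184.6 CPM in sum). At 3163 UMIs in all this does not bear on the label. The 2 barcodes of 1 week held 1005 and 524 UMIs of the listed ductal markers, beside 143 in the 59 WT barcodes. They are called acinar below by the rule and their secreted genes. Whether they were acinar or duct-like cells was not tested.

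Upstream sequences of 4 rule enzymes are shown as a description of genes that the rule used. That their transcripts were high together in the selected barcodes follows from the rule. Each line gives the 250 bases before the annotated start on the strand of the gene, from RefSeq on GRCm38.p6, in lower case with 3 motifs in capitals. They are the E-box CANNTG, the TATA-box letters TATAAA, and the letters TGGGA, which read TCCCA from the opposite strand. CANNTG and TGGGA are marked on either strand, and TATAAA on the strand of the gene only. *Prss2*, anionic trypsinogen, lies on the plus strand (window chr6:41521526-41521775), *Ctrb1*, chymotrypsinogen B, on the minus strand (chr8:111691011-111691260), *Cela1*, an elastase, on the minus strand (chr15:100687921-100688170), and *Pnlip*, pancreatic lipase, on the plus strand (chr19:58670115-58670364).
Prss2: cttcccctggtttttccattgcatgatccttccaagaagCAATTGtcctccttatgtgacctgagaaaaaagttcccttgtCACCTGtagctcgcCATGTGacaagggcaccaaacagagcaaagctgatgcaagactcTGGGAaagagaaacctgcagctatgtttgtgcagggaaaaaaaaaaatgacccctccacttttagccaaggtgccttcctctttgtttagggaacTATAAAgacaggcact
Ctrb1: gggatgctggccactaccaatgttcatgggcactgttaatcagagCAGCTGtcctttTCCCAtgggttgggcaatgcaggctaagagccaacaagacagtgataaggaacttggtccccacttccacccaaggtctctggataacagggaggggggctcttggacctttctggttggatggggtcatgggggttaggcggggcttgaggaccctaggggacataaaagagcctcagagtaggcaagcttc
Cela1: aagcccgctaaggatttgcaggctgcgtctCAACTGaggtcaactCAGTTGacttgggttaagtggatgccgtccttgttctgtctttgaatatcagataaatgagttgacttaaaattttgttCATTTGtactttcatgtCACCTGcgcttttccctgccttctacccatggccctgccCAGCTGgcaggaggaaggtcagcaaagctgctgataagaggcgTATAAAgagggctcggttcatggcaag
Pnlip: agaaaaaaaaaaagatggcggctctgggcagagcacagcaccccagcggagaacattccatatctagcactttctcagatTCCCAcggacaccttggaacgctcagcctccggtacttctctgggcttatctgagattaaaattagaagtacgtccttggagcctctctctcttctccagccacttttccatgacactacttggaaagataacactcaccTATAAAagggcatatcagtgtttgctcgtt
TATAAA started 16 bases before the annotated start of *Prss2*, 27 before that of *Cela1* and 30 before that of *Pnlip*, and was not in the window of *Ctrb1*. Of the 39 genes in the lists of acinar secreted proteins, rule enzymes included, 29 were found in the promoter table, and 11 of these (37.9%) held TATAAA within 40 bases before the start on the gene strand, against 758 of all 32851 promoters (2.31%). CANNTG was in 24 of the 29 (82.8%) and 66.2% of all promoters, and TGGGA in 23 (79.3%) and 55.1%. These matches are descriptions of letters, not of bound factors.

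The acinar barcodes were 59 of 12000 in WT, or 0.492% (0.374 to 0.634, Clopper-Pearson), 2 of 2295 at 1 week, or 0.0871% (0.0106 to 0.314), and 2 of 11229 at 5 weeks, or 0.0178% (0.00216 to 0.0643). The WT share lay above the intervals of both mutant libraries, and the intervals of the mutant libraries overlapped each other. How cleanly islets were picked cannot be told apart from condition, and the WT file was reduced to 12000 barcodes and cleared of barcodes with several hormones before deposit. Among WT barcodes with hormones under their limits, the enzyme limit cut through a gap. The lowest included ones had 5.65% and 8.11% of UMIs from the rule enzymes, and the highest excluded ones 3.33% and 3.19%. This enzyme margin was narrow at 5 weeks, with 5.67% and 6.61% inside and 4.29% outside, and wide at 1 week, with 10.7% and 10.9% inside and 1.13% outside. No such gap lay at the *Ins2* limit in WT. Included barcodes reached 19.4% *Ins2*, and an excluded one with 22.9% rule enzymes had 20.3%.

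The 1-week barcodes stood apart from the WT acinar barcodes in depth. The enzyme shares of both mutant libraries lay within the WT range over all depths, towards its low end. WT acinar barcodes had 503 to 9312 UMIs (median 1909) and 204 to 850 detected genes (median 378), beside a median of 1404 UMIs and 362 genes in the WT endocrine barcodes, those with 1 hormone at or over its limit and rule enzymes under 5%. Rule enzymes made up 5.65% to 64.5% of their UMIs (median 41.0%), and 43 of the 59 barcodes had 30% or more. The 30 deeper barcodes had a median of 47.9% and the 29 shallower ones 32.6%. The 1-week barcodes had 57306 and 32971 UMIs, 5747 and 4560 detected genes, and 10.7% and 10.9% rule enzymes. These shares were under the lowest of the 30 deeper WT barcodes. No WT barcode of any class exceeded 1489 detected genes, and the study kept cells with up to 1500. The WT file could thus not show barcodes of this depth, and filtering of the files cannot be told apart from a difference between cells. At 5 weeks the enzyme-positive barcodes had 2616 and 547 UMIs with 6.61% and 5.67% rule enzymes. Mitochondrial transcripts made up 0.184% to 11.1% of UMIs in WT (median 1.58%, beside 3.55% in WT endocrine barcodes), 1.73% and 0.707% at 1 week, and 2.41% and 3.29% at 5 weeks.

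**Figure D1:**
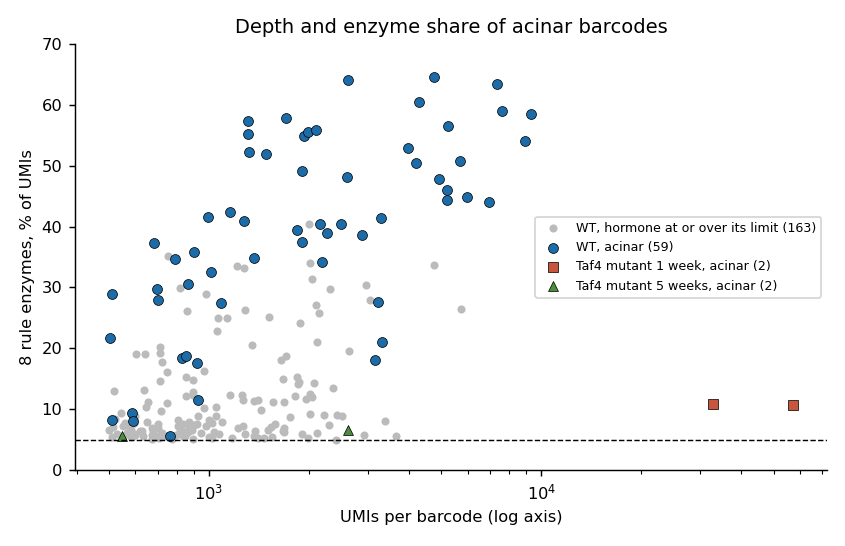
Share of UMIs from the 8 rule enzymes (percent) against total UMIs per barcode (log axis), one point per barcode with 5% or more enzymes (dashed line). Grey points are the 163 WT barcodes with a hormone at or over its limit, which are not members. WT acinar barcodes spread from 5.65% to 64.5% at 503 to 9312 UMIs, the 2 barcodes of 1 week lie at 32971 and 57306 UMIs near 11% and the 2 of 5 weeks near the 5% limit.

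In WT acinar barcodes most transcripts encoded secreted acinar proteins. The rule enzymes made up 46.9% of all UMIs and the other listed acinar secreted proteins 20.4%, beside 11.4% from islet hormones, 4.85% from ribosomal protein genes, 1.34% from the mitochondrial genome and 15.1% from all other genes. In WT endocrine barcodes islet hormones took 64.0%, rule enzymes 0.445% and the other acinar secreted proteins 0.204%. The 1-week barcodes had 10.8% rule enzymes, 2.66% other acinar secreted proteins, 0.116% hormones and 19.9% ribosomal protein transcripts, leaving 65.2% for other genes. Their profile was thus far less dominated by secreted products.

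*Ctrb1* was the leading transcript of WT acinar barcodes at 131797 CPM (UMIs of a gene per 1000000 UMIs in the sum over the barcodes), and among the rule enzymes it was followed by the trypsinogens *Try4* at 82059 CPM, *Prss2* at 71020 CPM and *Try5* at 41723 CPM. *Clps*, the colipase that anchors lipase on fat droplets, stood at 41551 CPM and *Pnlip* at 39877 CPM. *Cela1* had 38260 CPM and *Cpa1*, carboxypeptidase A, 23077 CPM. Trypsinogen genes are near-identical neighbours on chromosome 6 (*Try4* from 41302272 to 41305533, *Try5* from 41311232 to 41314710, *Prss2* from 41521776 to 41525079), so how the counting divided reads among them is uncertain. In WT endocrine barcodes the same genes had 1269 CPM for *Ctrb1*, 874 for *Try4*, 728 for *Prss2* and 209 for *Cpa1*.

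The enzyme mixture varied among WT acinar barcodes by more than counting error. *Ctrb1* took 12.6% to 49.9% of a barcode's rule-enzyme UMIs (median 29.7%), and in 36 of 59 barcodes its interval excluded the pooled 28.1%. *Try4* ranged from 6.60% to 31.1% and also lay off its pooled 17.5% in 36 barcodes. *Clps*, from 0.625% to 25.8%, was off its pooled 8.85% in 31 barcodes. *Cela1* was the most even of the 8 by this count, from 0% to 12.8%, with 17 barcodes off its pooled 8.15%. The barcodes thus differed in the balance of the enzymes as well as in their total.

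**Figure D2:**
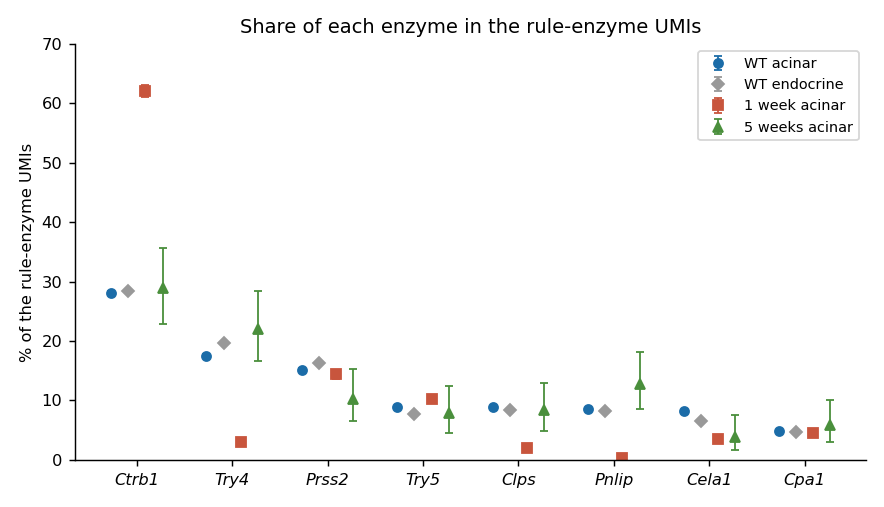
Share of each of the 8 rule enzymes among rule-enzyme UMIs (percent), for acinar barcodes of the 3 libraries and endocrine barcodes of WT, as points with exact binomial 95% intervals. The acinar and endocrine points of WT are close, with *Ctrb1* at 28.1% and 28.5%, whereas in the 1-week acinar barcodes *Ctrb1* takes 62.1%.

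Genes outside the rule followed the enzymes. Of 10895 genes with 20 or more UMIs in acinar and endocrine sums together and outside the 11 rule genes, 65 (0.597%) were 4-fold or more higher in WT acinar barcodes with their whole interval (exact conditional, past 4-fold), and 4 (0.0367%) were lower. Of the 65 genes, 33 were in the acinar lists, 3 in other lists and 29 in none. The higher genes included 8 of 8 tested serine protease zymogens, 7 of 7 other digestive enzymes, 11 of 11 granule and secreted proteins and 4 of 4 *Reg* genes. Over all tested genes the median log2 ratio was -2.60, because most genes had few or 0 UMIs in the 59 barcodes.

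Among the zymogens outside the rule, the trypsinogen-like *2210010C04Rik* had 30271 CPM in WT acinar against 293 CPM in endocrine barcodes, the elastases *Cela2a* and *Cela3b* had 24395 and 12286 CPM, and the chymotrypsin *Ctrl* had 19709 CPM. *2210010C04Rik*, *Cela2a*, *Ctrl*, *Reg1* and *Sycn* were detected in 59 of 59 barcodes. *Cpb1*, carboxypeptidase B, stood at 12993 CPM, the ribonuclease *Rnase1* at 9587 CPM and *Cel*, the bile salt-stimulated lipase, at 5233 CPM. *Amy2a5*, an amylase with near-identical copies, had only 248 CPM, so its level is uncertain. Granule proteins were led by *Sycn*, syncollin of the granule membrane, at 23313 CPM and the lectin *Zg16* at 17685 CPM, with the trefoil factor *Tff2* at 4577 CPM, the trypsin inhibitor *Spink1* at 3603 CPM and the granule membrane glycoprotein *Gp2* at 700 CPM. *Reg1*, a secreted lectin, was at 14483 CPM.

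**Figure D3:**
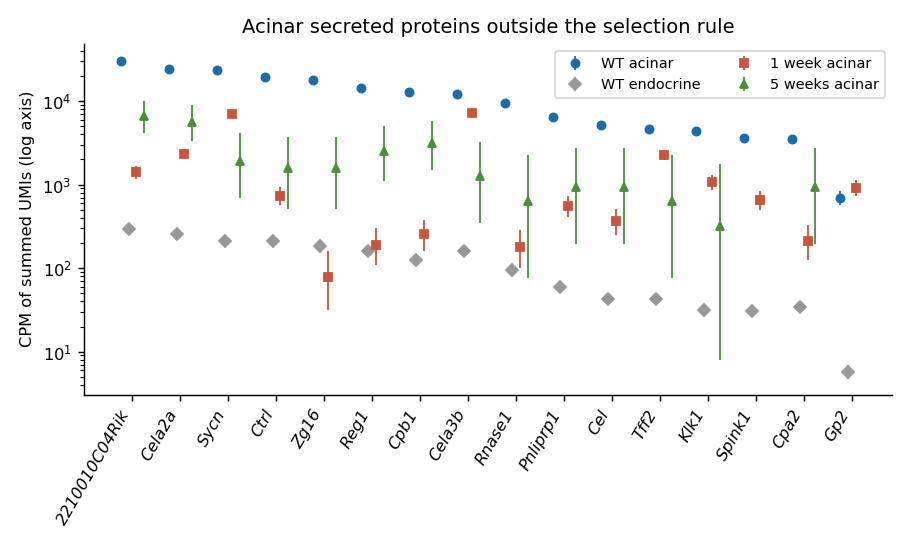
Levels (CPM, log axis) of acinar secreted genes outside the rule in acinar barcodes of the 3 libraries and endocrine barcodes of WT (grey), with exact Poisson 95% intervals. The WT acinar point is highest for every gene drawn except *Gp2*, which is at 700 CPM in WT and 908 CPM at 1 week, and genes with 0 UMIs at 5 weeks (*Spink1*, *Gp2*) are not drawn.

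The 10 highest log2 ratios of acinar over endocrine barcodes in WT, among genes outside the rule with 20 or more acinar UMIs, belonged to *Gm5771* (8.23), *Dmbt1* (7.36), *Pnliprp2* (7.15), *Klk1* (7.10), *Prss3* (7.08), *Try10* (7.01), *Serpini2* (6.99), *Pla2g1b* (6.96), *Cel* (6.96) and *Gp2* (6.92). *Gm5771*, *Prss3* and *Try10* are trypsinogen-like genes, *Klk1* is a kallikrein, *Pnliprp2* and *Pla2g1b* are a lipase and a phospholipase of pancreatic juice. The first of these rested on few barcodes, as *Gm5771* had 47 UMIs in 7 of 59, and with the hormone limits halved its ratio was 5.71. For the secreted genes outside the rule given above with their CPM, the ratios ran from 6.24 for *Cela3b* to 6.96 for *Cel*, whatever the level.

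Regulators of acinar identity were sparse at this depth. *Ptf1a* had 5 UMIs in 5 WT acinar barcodes (31.8 CPM, 10.3 to 74.3) against 2 UMIs in 11708 endocrine barcodes, *Rbpjl* 9 UMIs in 8 barcodes and *Bhlha15*, the secretory factor Mist1, 4 UMIs in 3 barcodes. *Nr5a2* and *Gata4* had 0 UMIs, which allows up to 19.1 CPM each (3 counts). Of 3 tested factors *Rbpjl* alone was called higher. *Cckar*, the cholecystokinin receptor, had 6 UMIs in WT acinar barcodes (38.2 CPM) beside 0.472 CPM in endocrine barcodes, and 0 of 7 tested genes of secretagogue receptors and exocytosis were called. *Gamt*, of creatine synthesis, and the water channel *Aqp12* were higher, at 229 and 204 CPM against 2.26 and 1.73 CPM.

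None of the listed endoplasmic reticulum and stress genes was called in WT. Among 16 genes of translocation and folding, 0 were called in either direction, beside 0.597% higher and 0.0367% lower of all genes. At such shares 16 genes cannot show whether the list stood apart. Their median log2 ratio was -0.94, and their sum was lower in acinar barcodes (-0.77, -0.91 to -0.64). The -2.60 of all genes comes from genes with few or 0 acinar UMIs. The chaperone *Hspa5* had 286 CPM in acinar and 364 CPM in endocrine barcodes, and the translocon subunit *Sec61b* 325 and 755 CPM. All 14 stress genes were detected and 0 were called. *Hspa1a* had 477 CPM against 384, and *Atf3* 185 CPM against 54.9. *Nupr1*, a stress-induced gene known from pancreatitis and named after its values were seen, was higher at 2642 CPM against 143 CPM.

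Markers of other cell types were low but not absent in WT. The listed ductal markers summed to 143 UMIs over 43 barcodes, with 54 each of *Krt8* and *Krt18*, and *Spp1* was the 1 of 7 tested that was called. *Sox9*, a defining duct factor, had 0 UMIs. *Clu*, clusterin, was the 1 of 4 tested injury genes called, at 318 CPM against 43.8 CPM. Macrophage markers gave 42 UMIs in 6 barcodes, 21 of them in a single barcode, and *Cd74* was called on 28 UMIs in 4 barcodes. Endothelial markers had 4 UMIs, mesenchymal markers 9 and lymphocyte markers 0.

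Islet hormones were present in the WT acinar barcodes. *Ins2* ranged from 11 to 969 UMIs with a median of 27, beside a median of 20 in the WT alpha and delta barcodes, which should not make it. In 40 acinar barcodes *Ins2* was at or under 131 UMIs, the 99th percentile of those alpha and delta barcodes, and in 19 it was above, at 150 to 969 UMIs. The latter were deeper, with a median of 3306 against 1291.5 UMIs, but their median enzyme share was 41.4% against 40.7%. Against endocrine barcodes, *Ins1*, *Iapp*, *Pebp1* and *Dnajb9* were the 4 genes called lower, with *Ins1* at 20798 against 132504 CPM. In the 40 barcodes alone 64 genes were called higher and 6 lower, and *Reg1* was at 16809 CPM and *Ctrb1* at 148615 CPM. A further 163 WT barcodes (1.36%) had 5% or more enzymes with a hormone at or over its limit, *Gcg* in 73, *Ins2* in 69 and *Sst* in 21, while each mutant library had 0. Whether such droplets held more than 1 cell was not tested.

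Enzyme transcripts were also found in nearly every WT barcode of other classes. The rule enzymes averaged 7.27 UMIs per barcode in beta, 7.20 in alpha, 7.13 in delta and 7.24 in the remaining WT barcodes, and 97.7% of beta barcodes had at least 1. Their mixture there was close to that of the acinar barcodes, with *Ctrb1* at 28.5% of rule-enzyme UMIs, *Try4* at 19.6%, *Prss2* at 16.4% and *Cpa1* at 4.69% in endocrine barcodes, against 28.1%, 17.5%, 15.1% and 4.92%. UMIs per barcode were thus alike across hormone classes, beside a mean of 1250 UMIs per acinar barcode. As a share of UMIs they differed, at 0.373% in beta, 0.842% in alpha and 1.01% in delta barcodes, which were shallower than beta barcodes. At 5 weeks the averages were 2.56 in beta, 2.97 in alpha and 3.04 in delta barcodes. At 1 week they were 0.305 and 0.118 in beta and alpha barcodes. A single beta barcode held 132 of the 354 UMIs, and without it, a choice made after seeing the data, the beta average was 0.192. The 22 delta barcodes of 1 week had 5.09, but 110 of their 112 UMIs were *Cela1*, and without it the average was 0.0909. *Cela1* made up 6.83% of rule-enzyme UMIs in WT delta barcodes. The part that this background had in the acinar-over-endocrine ratios was not tested; the endocrine level sets their denominator.

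**Figure D4:**
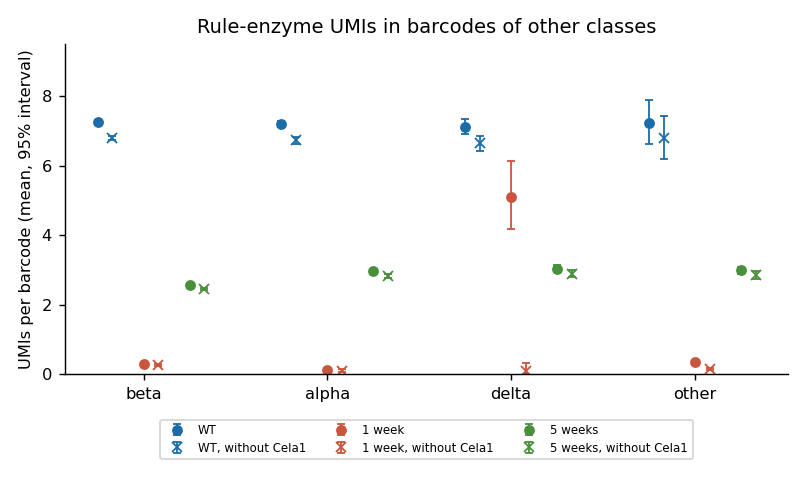
Mean rule-enzyme UMIs per barcode (exact Poisson 95% intervals) in beta, alpha, delta and other barcodes of the 3 libraries, with all 8 enzymes (circles) and without *Cela1* (crosses). WT lies near 7 in every class, 5 weeks near 3, and 1 week under 0.4 except in delta barcodes, where *Cela1* gives the difference.

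The 2 acinar barcodes of 1 week resembled each other closely. Their barcode sequences differed at 11 bases, and of 541 genes with 20 or more UMIs in both together, 54 (9.98%) had a ratio whose interval excluded 1 and 2 were past 2-fold. *Ctrb1* was at 66188 and 68333 CPM, *Prss2* at 16002 and 14649 CPM, *Sycn* at 6701 and 7400 CPM and *Cela3b* at 6526 and 8371 CPM. Islet products were near absent, with 0 *Sst*, 47 and 38 *Ins2* UMIs and 1 and 0 *Chga* UMIs. They come from 1 library of pooled animals and are not replicates of the condition.

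Against the 1384 endocrine barcodes of 1 week, 337 of 11265 genes (2.99%) were called higher and 40 (0.355%) lower. Thinned to 500 UMIs per barcode the counts were 13 and 3, and the gene limits of the study would leave 0 acinar barcodes at 1 week. All tested zymogens (4 of 4), other digestive enzymes (6 of 6) and granule proteins (5 of 5) were among the higher genes, as were 6 of 9 ductal markers and 4 of 6 injury genes. Of the stress genes *Junb* and *Fos* were higher and *Ddit3* and *Herpud1* lower, while 0 of 16 folding genes were called. With the rule enzymes and main hormones left out of the denominator every log2 ratio was lower by 0.62, and 235 genes were called higher and 70 lower. Lower genes included 8 of 9 pan-endocrine granule genes. Of 12 beta markers 6 were lower, counting *Ins2*, which the rule used and which is not among the 40.

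Duct-associated and injury-associated genes were abundant in the 1-week barcodes. *Clu*, a secreted chaperone raised in injured acinar cells, was second to *Ctrb1* at 48651 and 45464 CPM, against 62.5 CPM in endocrine barcodes of that library. The simple-epithelial keratins followed, *Krt18* at 7800 and 6642 CPM, *Krt8* at 5671 and 5520 CPM and *Krt19*, the duct keratin, at 2652 and 2457 CPM. *S100a6*, a calcium-binding protein, was at 6038 and 5277 CPM. *Muc1*, *Tspan8* and *Cldn4* were also higher, whereas *Sox9*, *Spp1* and *Car2* had 0 UMIs, so the ductal list was not high as a whole. Of the acinar factors, *Bhlha15* and *Nr5a2* had 0 UMIs, *Gata4* had 1 and *Xbp1* 11, and *Ptf1a* and *Rbpjl* are not in the table of that library.

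Other abundant genes, chosen for naming with their values known, follow. The ferritin light chain *Ftl1* was at 34028 and 43220 CPM, the glutathione transferase *Gsta1* at 10313 and 9736 CPM and *Nupr1* at 8725 and 9038 CPM. By the naming rule, the highest ratios fell on genes with 0 UMIs in endocrine barcodes, ordered by acinar UMIs: *Gm3776* (270 UMIs), *Gp2* (82), *2200002D01Rik* (63), *Sprr1a* (58), *Ctse* (54), *Pnliprp2* (43), *Krt23* (39), *Mal* (35), *Serpinb6b* (29) and *Ano1* (25). No fold is given for these. *Sprr1a* is a cornified-envelope protein, *Ctse* an aspartic protease, *Krt23* a keratin and *Ano1* a chloride channel.

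**Figure D5:**
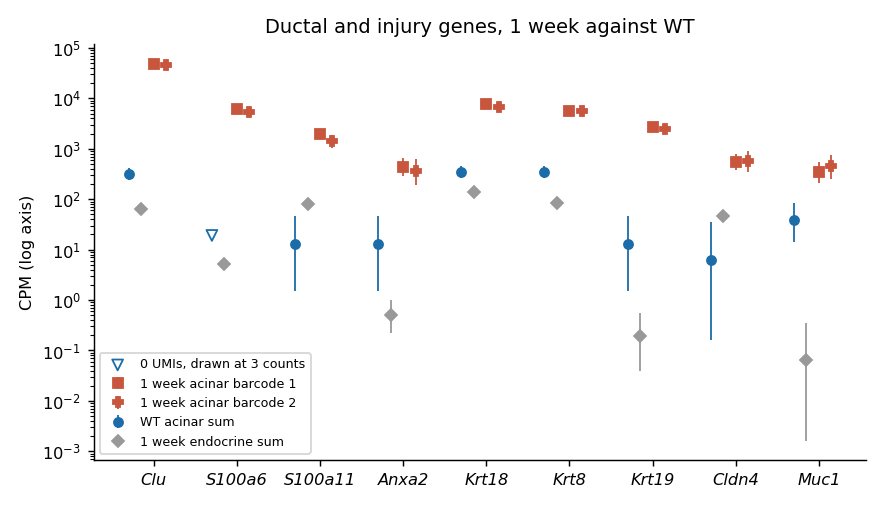
Levels (CPM, log axis) of ductal and injury genes in the summed WT acinar barcodes, each of the 2 acinar barcodes of 1 week and the summed 1-week endocrine barcodes (grey), with exact Poisson 95% intervals. *Clu* is at 318 CPM in WT and at 48651 and 45464 CPM in the 2 barcodes of 1 week, and *S100a6*, with 0 UMIs in WT, is drawn as an open triangle at the level of 3 counts.

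Acinar barcodes of 1 week and WT were then compared directly, gene by gene, among 830 genes with 20 or more UMIs in both sums together. At 1 week 454 (54.7%) were 2-fold or more higher with their whole interval and 60 (7.23%) lower. With the rule enzymes and main hormones left out of the denominator all log2 ratios were lower by 1.02, and 225 were higher and 82 lower. Without the 11 rule genes 454 of 819 were higher and 50 lower. With every barcode thinned to 500 UMIs, which leaves far fewer counts, 8 were higher and 17 lower, so the balance towards higher genes was not kept at that depth. The median log2 ratio was 2.16, so list members are read against it. The barcodes of 1 week were also far deeper, and depth, filtering of the files, animals and condition cannot be told apart.

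Enzymes were unevenly lower at 1 week. The 8 rule enzymes, whose shares selected the barcodes and which are given without a test, had a median log2 ratio of -2.80, with *Pnlip* at 366 CPM against 39877 (log2 -6.77, -7.31 to -6.28), *Try4* at 3268 against 82059 (-4.65), *Clps* at 2094 against 41551 (-4.31) and *Cela1* at 3799 against 38260 (-3.33). *Ctrb1* was at 66972 against 131797 CPM, a log2 ratio of -0.98 (-1.02 to -0.94). Its share of rule-enzyme UMIs was 62.1% at 1 week and 28.1% in WT. Outside the rule, 4 of 5 zymogens, 6 of 7 other enzymes and 5 of 8 granule proteins were lower, among them *Zg16* (-7.83) and *Rnase1* (-5.76). With the other denominator the counts were 5, 7 and 7. *Cela3b* was only modestly lower (-0.77) and *Gp2* was at 908 against 700 CPM (0.38, -0.06 to 0.80). *Reg1* was at 188 against 14483 CPM (-6.27).

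In the endocrine barcodes of the same libraries the enzymes differed as well, with *Pnlip* at 0.569 CPM at 1 week and 363 CPM in WT (log2 -9.32) and *Ctrb1* at 9.05 and 1269 CPM (-7.13). Among genes with 3 or more UMIs in each sum, the 5 lowest ratios in acinar barcodes were those of *Iapp* (-8.09), *Zg16*, *Pnlip*, *Reg1* and *Ins2* (-6.04). Below that minimum *Ins1* had 2 UMIs against 3267 in WT, and *Sst* and *Pyy* 0 against 365 and 349. *Iapp* and *Ins2* are islet products. *Ins2* was at 942 against 62037 CPM, and with the 40 WT barcodes low in *Ins2* its ratio was -3.99.

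Among genes with 3 or more UMIs in each sum, the 5 highest ratios of 1 week over WT were those of *Clu* (7.22, 6.82 to 7.65), the RNA-binding *Ybx1* (6.02), the actin-associated *Tagln2* (5.85), *Cyb5a* (5.84) and the transferase *Gsto1* (5.50). In endocrine barcodes *Clu* differed by 0.51 between these libraries, *Tagln2* by 0.61 and *Cyb5a* by -0.48, while *Ybx1* (1.90) and *Gsto1* (2.59) were higher there too. All but *Clu* had 3 or 4 UMIs in WT acinar barcodes, so their size is loose. *S100a6* had 520 UMIs at 1 week and 0 in WT, which allows up to 19.1 CPM. Of the ductal list 6 of 7 compared genes were higher and 1 lower, and 4 of 4 injury genes were higher. Of all 830 genes 54.7% were higher, so these counts of few genes stand beside a high share. *Krt19* was at 2581 against 12.7 CPM and *Krt8* at 5616 against 344 CPM. The ductal and injury counts were 6, 1 and 4 with the other denominator too, where 225 of all 830 genes were higher. In contrast, 5 of 10 stress genes and 1 of 12 folding genes were lower, beside 7.23% of all 830 genes, and 0 were higher. The lower counts were 7 and 2 with the other denominator. The median was -2.69 for stress and 0.19 for folding genes. Of the 5 lower stress genes, *Fosb* (-7.05), *Hspa1b* (-4.41), *Hspa1a* (-3.89) and *Atf3* (-1.85) were also lower at 1 week in endocrine barcodes. *Herpud1* was higher there (1.22).

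At 5 weeks the 2 enzyme-positive barcodes carried endothelial transcripts. *Plvap*, of fenestrated capillaries, had 7 and 3 UMIs, *Kdr*, the VEGF receptor, 1 and 2, *Flt1* 5 and 0 and *Pecam1* 4 and 0. The deeper barcode had 6 of 7 endothelial markers and the shallower 2. Genes named after their values were seen were alike, with *Emcn* at 8 and 9 UMIs, *Igfbp7* at 31 and 1 and *Fabp4* at 12 and 1. The pericyte gene *Rgs5* had 7 and 0 UMIs. *Ins2* made up 2.45% and 11.5% of UMIs.

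Of 12210 genes, 207 (1.7%) were called higher than in the endocrine barcodes of 5 weeks and 2 (0.0164%) lower, *Iapp* and *Pyy*. The higher genes included 6 of 7 endothelial markers, 2 of 3 mesenchymal markers, 4 of 7 zymogens, 5 of 8 other enzymes and 3 of 7 granule proteins. With the other denominator log2 ratios were lower by 1.01. By the naming rule 8 genes had 20 or more UMIs, led by *2210010C04Rik* (6.89) and *Igfbp7* (6.69). The rule enzymes summed to 173 and 31 UMIs, with *Ctrb1* at 54 and 5, *Try4* at 39 and 6 and *Pnlip* at 24 and 2. *Ctrb1* made up 28.9% (22.8 to 35.7) of them, beside 28.0% in the endocrine barcodes of that library, and *Prss2* 10.3% (6.49 to 15.3) beside 16.3%. That these sums lay above the endocrine average of 2.75 UMIs follows from the rule. The 31 UMIs of the shallower barcode lay within the range of single endocrine barcodes, which reached 34. The ranges overlapped in WT too, where the lowest acinar barcode had 42 rule-enzyme UMIs and single endocrine barcodes reached 183.

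Compared with WT acinar barcodes, 34 of 310 genes (11%) were higher at 5 weeks and 24 (7.74%) lower, or 20 and 35 with the other denominator. Without the 11 rule genes these were 34 and 16 of 299, and thinned to 500 UMIs they were 6 and 17. Among genes with 3 or more UMIs in each sum, the lowest ratios were those of *Cela1* (-3.92), *Ctrl* (-3.64), *Sycn* (-3.62), *Iapp* (-3.52) and *Zg16* (-3.48). *Rnase1* and *Klk1* had 2 and 1 UMIs and *Spink1* had 0. The highest were *Igfbp7* (7.63), *Junb* (5.51), *Rps27* (4.16), *Hspa1a* (3.99) and *Fos* (3.99). *Junb*, *Hspa1a* and *Fos* are immediate early and heat shock genes, and they were also higher at 5 weeks in endocrine barcodes, by 2.19, 1.99 and 2.28 on the log2 scale. Since the 5-week barcodes carried endothelial markers, these ratios cannot be read as a difference between acinar cells.

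Genes called higher than endocrine in WT overlapped in part with those of the mutants. WT shared 25 genes with 1 week (38.5% of the 65 and 7.42% of the 337) and 15 with 5 weeks (23.1% and 7.25% of the 207). Some of the 65 could not be shared with 1 week, because that library does not list them. Of 7 *Reg* genes, 4 were called in WT and 1 was listed at 1 week. By comparison, 2.99% of 11265 tested genes were called higher for the 1-week barcodes. That share was 1.7% of 12210 genes for the enzyme-positive barcodes of 5 weeks, and 0.597% of 10895 for WT. Thinning to 500 UMIs per barcode lowered the called counts of every library, and the overlap is given at full depth only. The 207 genes also included endothelial markers.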

How the data were processed

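Single-cell RNA of dissociated islets was measured in 3 libraries. Per the labels and methods, the authors used bcl2fastq 2.17.1.14, Cell Ranger 3.1 on mm10 and Seurat 3.1.4, and in WT they removed barcodes with several hormones, ran DoubletFinder and scaled down to 12000 cells. The deposited tables hold unnormalized UMI counts, genes by barcodes. No further doublet caller was run here.

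Barcodes were classed by the rule, and UMIs were summed per class and library. Levels are CPM of these sums with exact Poisson intervals, shares have Clopper-Pearson intervals and ratios exact conditional intervals, at 95% (Python 3.11.15, numpy 2.4.6, scipy 1.17.1, pandas 2.3.3, matplotlib 3.10.9). Genes needed 20 UMIs in both sums together. A gene was called when its ratio and whole interval passed 4-fold against endocrine barcodes, or 2-fold between libraries. A count of 0 allows up to 3 counts. UMIs remove amplification copies, but intervals cover counting error only, not animals. The calculation was tested on simulated data.

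Named genes were list members, the 10 highest ratios to endocrine barcodes per library and the 5 highest and lowest between libraries (3 or more UMIs in each sum). The members and lists were chosen with earlier results of these data known. Coordinates and promoters are from RefSeq tables of GRCm38.p6, the assembly behind mm10.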

Additional observations from a re-analysis of the deposited data

How the results depend on the processing

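With 1 library per condition no replicate spread exists, and counts of 2 barcodes at 1 week and 5 weeks limit every ratio there. Of 135 values that answer a comparison, recomputed under the alternatives, 100 stayed within the spread or within 1.5 times and 35 moved, with 0 reversed. Of 307 values for single genes, 235 stayed, 71 moved and 1 reversed: *mt-Atp6* at 5 weeks, from 0.17 to -0.84 when the rule enzymes and main hormones were left out of the denominator. The cause of the moves was not tested.

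With rule enzymes at 10%, WT *Ins2* was 174 UMIs per acinar barcode and 0 barcodes were left at 5 weeks (0%). With hormone limits halved, the WT share was 0.342%, the median enzyme share 48.1%, the means 96.4 *Ins2*, 14.1 *Gcg* and 4.80 *Sst* UMIs, and 10 genes were lower. Under the gene and mitochondrial limits of the study, 0% of barcodes were acinar at 1 week, and endocrine barcodes of 5 weeks had 2.79 enzyme UMIs. Thinned to 500 UMIs, higher and lower counts against endocrine barcodes were 41 and 1 in WT, 13 and 3 at 1 week and 58 higher at 5 weeks, those over WT were 8 and 17 at 1 week and 6 higher at 5 weeks. Mean CPM per barcode gave 16 lower in WT. With the other denominator 70 (1 week) and 5 (5 weeks) were lower than endocrine, and 225 (1 week) and 20 (5 weeks) higher than WT. A minimum of 50 UMIs gave 208 higher and 38 lower at 1 week over WT and 21 higher at 5 weeks.

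By the ratio alone, added after seeing the data, 253 were higher and 5725 lower in WT, 945 and 5206 at 1 week, 977 and 10949 at 5 weeks, and 127 and 124 at 5 weeks over WT. With the 40 WT barcodes low in *Ins2*, also added then, the median depth was 1291.5 UMIs. The 10% limit at 5 weeks and the limits of the study at 1 week left no barcode to compare genes in. No paired analysis was possible because each condition has 1 library.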
